A study of Mus musculus with 9 samples.

Results

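Accessible chromatin of D9T- cells was compared with that of D12S+ cells, which are Thy-1-negative cells sorted on day 9 and SSEA-1-positive cells sorted on day 12 of reprogramming. Regions were formed by merging the overlapping peaks of a library on chromosomes 1 to 19, and a region of one library that shared at least 1 bp with a region of the other was called common. D12S+ regions without a D9T- partner were gained and D9T- regions without a D12S+ partner were lost. From 35811 D9T- and 55759 D12S+ regions, 29654 were gained, 8613 were lost and the others joined into 25770 common regions. These 64037 regions stand beside 560752 regions counted library by library over the 8 libraries used here.

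Both populations came from mouse embryonic fibroblasts (MEFs) that carry an EGFP cassette behind the Oct4 (Pou5f1) gene and had been infected with pMXs retroviruses for Oct4, Sox2, Klf4 and c-Myc (OSKM), without a feeder layer. Thy-1 is a surface protein of fibroblasts that reprogramming cells lose, and SSEA-1 is a carbohydrate antigen of mouse pluripotent cells. The other libraries were MEFs at day 0 (D0), unsorted cells of day 3 (D3), Thy-1-negative cells of day 6 (D6T-), SSEA-1-positive cells of day 16 (D16S+), fully reprogrammed iPSCs, and Thy-1-negative day 6 cells given a non-targeting siRNA (D6 siNT). Each population had 1 library, so no difference below has a replicate check, and the intervals cover counting error or the sampling of regions only. The day and the sorted marker changed together between D9T- and D12S+ and cannot be told apart.

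ATAC-Seq uses a transposase that inserts adapters where DNA is not covered by nucleosomes, so that a peak marks an open promoter or a distal element. In fibroblasts, many distal elements carry the site of AP-1, the dimer of Fos and Jun proteins, often beside sites of TEAD and Runx factors. In pluripotent cells, distal elements are bound by Oct4 and Sox2, which recognise an octamer and a neighbouring Sox site, and by partners such as Nanog, Klf4 and Esrrb. Reprogramming is known to close the fibroblast elements, open the pluripotency elements and replace mesenchymal by epithelial gene activity.

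The sequences below show what lost, fallen, gained and risen regions looked like, and were taken from the NCBIM37 (mm9) genome, forward strand. Each is the window of up to 200 bases around the strongest summit, cut to the part outside annotated exons, and is named by the protein-coding gene with the nearest transcription start site (TSS). The 4 lost and 2 fallen distal windows are those of highest D9T- pileup or lowest ratio that hold no repeated sequence and have an AP-1 site in the part printed, and capitals mark the AP-1 letters TGANTCA on either strand.
Dap (chr15:30734919-30735118): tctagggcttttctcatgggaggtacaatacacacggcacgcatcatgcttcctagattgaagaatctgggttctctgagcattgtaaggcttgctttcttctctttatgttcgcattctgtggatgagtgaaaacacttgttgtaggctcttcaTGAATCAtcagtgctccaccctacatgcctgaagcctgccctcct
Gm9008 (chr6:75827724-75827923): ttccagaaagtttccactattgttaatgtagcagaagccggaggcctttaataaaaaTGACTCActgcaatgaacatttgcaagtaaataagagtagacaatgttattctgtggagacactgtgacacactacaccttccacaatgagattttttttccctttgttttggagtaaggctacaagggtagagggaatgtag
Chl1 (chr6:103347563-103347762): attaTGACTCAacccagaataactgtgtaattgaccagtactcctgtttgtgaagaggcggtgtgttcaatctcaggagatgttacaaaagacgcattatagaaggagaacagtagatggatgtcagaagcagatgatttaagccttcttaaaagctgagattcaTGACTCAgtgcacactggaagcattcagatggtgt
Lrrc4c (chr2:95679769-95679904): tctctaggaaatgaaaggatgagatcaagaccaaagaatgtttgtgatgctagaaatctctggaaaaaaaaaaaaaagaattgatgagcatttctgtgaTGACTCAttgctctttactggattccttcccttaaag
Eomes (chr9:118330491-118330690): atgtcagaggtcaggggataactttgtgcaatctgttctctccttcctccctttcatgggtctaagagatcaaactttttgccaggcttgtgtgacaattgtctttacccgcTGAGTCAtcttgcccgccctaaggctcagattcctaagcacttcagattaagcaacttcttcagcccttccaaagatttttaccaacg
Galntl6 (chr8:61284084-61284283): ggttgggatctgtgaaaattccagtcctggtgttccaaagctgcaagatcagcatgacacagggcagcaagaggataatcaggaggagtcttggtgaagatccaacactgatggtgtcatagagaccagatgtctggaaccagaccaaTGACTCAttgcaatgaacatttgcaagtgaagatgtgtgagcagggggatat
The next 4 are the gained distal windows of highest D12S+ pileup that were called in none of D0, D3 and D6T-, were called in both D16S+ and iPSCs, and hold an octamer, Sox or Esrrb site. Capitals mark ATGCNAAT or CATTGT on either strand.
Inhba (chr13:16922273-16922472): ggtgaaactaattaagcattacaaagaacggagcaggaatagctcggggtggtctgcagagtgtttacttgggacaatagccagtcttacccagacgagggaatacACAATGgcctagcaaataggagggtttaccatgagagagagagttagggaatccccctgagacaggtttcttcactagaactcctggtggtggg
Rab3gap2 (chr1:186928910-186929109): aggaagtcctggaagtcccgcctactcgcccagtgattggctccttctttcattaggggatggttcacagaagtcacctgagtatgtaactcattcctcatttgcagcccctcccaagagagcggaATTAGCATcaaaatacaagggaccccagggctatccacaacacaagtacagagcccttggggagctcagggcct
Ppp1r9a (chr6:4842542-4842741): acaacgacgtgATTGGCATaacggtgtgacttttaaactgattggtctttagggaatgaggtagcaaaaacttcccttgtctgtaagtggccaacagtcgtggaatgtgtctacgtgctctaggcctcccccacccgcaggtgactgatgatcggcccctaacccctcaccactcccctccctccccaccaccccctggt
AU018091 (chr7:3206631-3206830): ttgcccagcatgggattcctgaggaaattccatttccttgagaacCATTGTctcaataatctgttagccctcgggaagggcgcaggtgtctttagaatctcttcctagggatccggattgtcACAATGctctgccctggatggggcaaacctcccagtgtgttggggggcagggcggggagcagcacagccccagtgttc
The gained region at the promoter of Nanog, a core pluripotency factor, is shown for the pluripotency genes, with the Sox letters in capitals.
Nanog (chr6:122657415-122657506): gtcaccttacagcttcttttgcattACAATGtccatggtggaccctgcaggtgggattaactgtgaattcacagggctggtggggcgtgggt
The last 3 are the promoters with the highest ratios among those that rose and hold the Ets letters CCGGAAGT, which are in capitals.
Haus6 (chr4:86257960-86258148): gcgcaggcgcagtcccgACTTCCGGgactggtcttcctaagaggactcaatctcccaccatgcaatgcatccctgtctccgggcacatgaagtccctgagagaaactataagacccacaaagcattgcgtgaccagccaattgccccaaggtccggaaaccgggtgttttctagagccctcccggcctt
Rraga (chr4:86221388-86221576): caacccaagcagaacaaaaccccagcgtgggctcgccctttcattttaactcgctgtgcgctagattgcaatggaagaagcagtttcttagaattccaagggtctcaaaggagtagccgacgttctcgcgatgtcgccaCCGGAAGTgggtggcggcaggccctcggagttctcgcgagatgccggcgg
Ino80 (chr2:119303636-119303835): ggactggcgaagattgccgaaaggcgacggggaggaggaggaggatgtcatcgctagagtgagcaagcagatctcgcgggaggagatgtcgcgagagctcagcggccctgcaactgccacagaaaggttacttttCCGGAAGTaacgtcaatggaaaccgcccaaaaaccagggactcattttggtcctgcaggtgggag

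Libraries differed in depth and in kind. D9T- held 13213117 tags, the fewest of the 8 libraries, and D12S+ held 17613087. Signal is given as the pileup, the number of tags extended to 200 bp over a summit, or as pileup per 1000000 tags of the library (CPM). Calls began at 7 tags in D9T-, which is 0.530 CPM, and at 8 tags in D12S+, which is 0.454 CPM, so that a weaker opening was not detectable. A region without a call is taken to lie below these values, although a spike narrower than the shortest region of 200 bp would not be listed. D9T- was the smallest region set, and D6T- the largest, with 129532 regions. Only 814 of the D9T- regions (2.27%) lacked a D6T- partner.

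Windows of repeated sequence, where more than 50% of the sampled 51-mers occur more than once in the genome, made up 4.52% of D12S+ regions but 1.61% of D9T- regions. This share was also higher in D3 (4.85%) and D16S+ (8.13%) than in D0 (1.67%), D6T- (2.08%) and D6 siNT (1.71%), with iPSCs at 2.80%. D12S+ further had relatively more signal in GC-rich regions than D9T-, and this is given beside the ratios below. The methods state that reads mapping to more than one place were removed, whereas these regions lie where a 51 bp read has more than 1 match. Whether that filter acted alike in all libraries is not given in the sources used here, and a value in repeated sequence may belong to another copy. The part of these library properties in the results was not tested.

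Gained regions were mostly weak. The median gained region had 13 tags in D12S+ (interquartile range 11 to 15). Only 3786 of them (12.8%) reached 2 times the lowest CPM called in D9T-, and in 5813 (19.6%) the exact 95% lower limit of the tags lay above that value. Lost regions had a median of 11 D9T- tags (9 to 13) and a highest value of 37 tags. Of these, 2371 (27.5%) reached 2 times the lowest CPM called in D12S+. With equal numbers of regions of highest pileup in both libraries, 35811 each, 14187 were gained and 12929 were lost.

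Most gained regions were not open for the first time. Of the 29654, 22381 (75.5%, 95% Wilson interval 75 to 76) were called in at least 1 of D0, D3 and D6T-. By library, 20690 (69.8%) were called in D6T-, 58.5% in D3 and 33.4% in D0. Each share was below that of all 64037 regions, which was 84.8% in D6T-, 73.1% in D3 and 49.7% in D0. The 7273 gained regions called in none of those 3 libraries are named new here. Of the new regions, 3515 (48.3%) were called in both D16S+ and iPSCs, and 1599 (22.0%) in neither. Among the 22381 called before, 8669 (38.7%) were called in both later libraries and 7914 (35.4%) in neither. Gained regions thus held a set shared with D16S+ and iPSCs, and a set of regions called earlier that was called in neither of them. No share over all regions was taken for these combined conditions, so neither set is shown to be particular to gained regions.

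Lost regions were seldom called later. They were called in D6T- in 94.2% of cases, in D3 in 63.0% and in MEFs (D0) in 30.1%. Later they were called in D16S+ in 8.0% and in iPSCs in 8.34%. Together, 7184 of 8613 (83.4%, 82.6 to 84.2) were called in D6T- and in neither D16S+ nor iPSCs, and 5648 (65.6%) were called at D3 or D6T- but not in MEFs. These combined shares were not taken over all regions, of which 84.8% were called in D6T-. The share of lost regions called in MEFs, 30.1%, was close to that of gained regions (33.4%) and below that of all 64037 regions (49.7%). Gained regions were called later in 56.4% (D16S+) and 52.6% (iPSCs). These values were near the 55.8% and 52.9% of all regions and below the 71.0% and 68.1% of common regions. D6 siNT, an independent library of day 6 Thy-1-negative cells, held 60.7% of lost and 22.6% of gained regions, beside 53.8% of all regions. D6T- held the most regions of all libraries and had a partner for 98.9% of the common regions, so its share is high for any class.

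**Figure D1:**
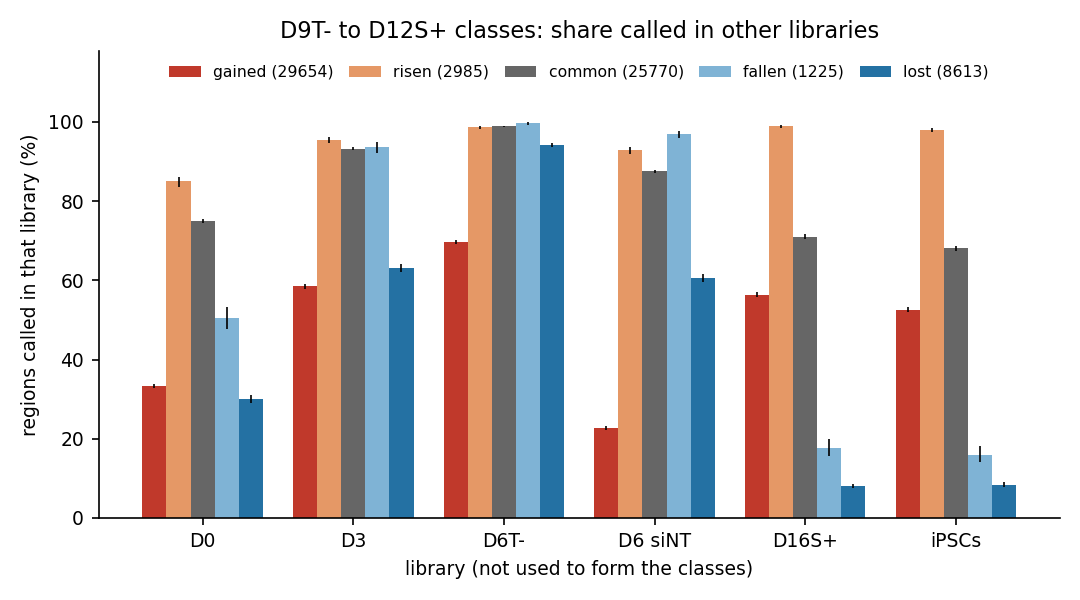
Bars give the percentage of gained, risen, common, fallen and lost regions (number in the legend) that shared at least 1 bp with a region of each library that was not used to form the classes. Error bars are 95% Wilson intervals over regions. Lost and fallen regions were at 8.0% to 17.7% in D16S+ and iPSCs, and risen regions at 98.0% or more.

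The strength of a gained region went with its later history, for iPSCs only up to a point. Of gained regions under 0.530 CPM in D12S+, 38.0% were called in D16S+ and 39.4% in iPSCs. From 1.2 to 2 CPM these shares were 93.7% and 82.5%. Without regions that held a repeated 51-mer, the shares went on rising, to 100% and 97.6% of the 85 regions from 2 to 5 CPM. With repeated sequence included, the strongest regions departed from this in iPSCs. All 22 gained regions of at least 5 CPM were called in D3, D6T- and D16S+, 20 of them in none of D0, iPSCs and D6 siNT, and 21 lay in repeated sequence.

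Of the 10 highest gained regions, those nearest to Ezh2 or Pdia4 on chromosome 6 lay wholly in repeated sequence, so that the values below carry the doubt about the filter given above. The highest, chr6:47706905-47708185, had 687 tags (39.0 CPM) in D12S+ and was not called in D9T-, which makes it at least 73.6-fold higher by the lowest CPM called. Its level was 36.9 CPM in D3, 45.2 CPM in D6T- and 41.9 CPM in D16S+, and it was not called in D0, D6 siNT or iPSCs. D9T- and D12S+ thus fell on different sides of a split that did not follow the days, with D6T- and D6 siNT also apart. The promoters of Gm13275 (224 tags), Gm14305 (154 tags) and Gm3435 (148 tags), which also lay in repeated sequence, had the same split. Common regions in repeated sequence led the ratios too. A region at Fcgr3, which encodes an Fc gamma receptor, had 9 tags in D9T- and 192 in D12S+ (log2 ratio 4.00, 95% interval 3.05 to 5.15), beside 14.0 CPM in D3, 19.2 CPM in D6T- and 1.13 CPM in iPSCs. Without every region that held a repeated 51-mer, 25435 gained, 8215 lost and 24377 common regions were left.

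**Figure D2:**
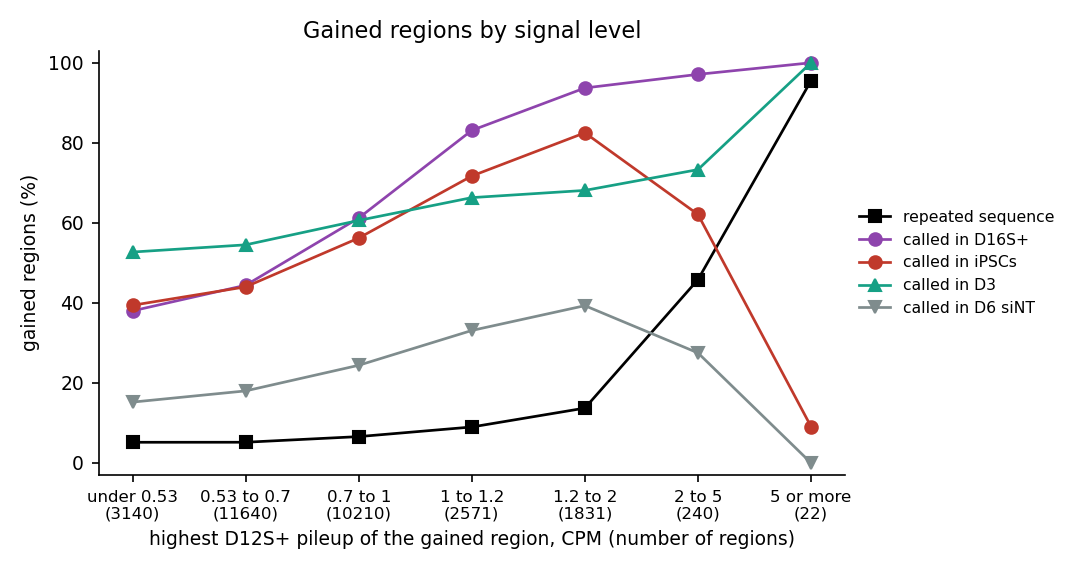
Gained regions are grouped by their highest D12S+ pileup in CPM (x axis, number of regions in parentheses), and the y axis gives the percentage in repeated sequence and the percentage called in D16S+, iPSCs, D3 and D6 siNT. The share in iPSCs rose with the level to 82.5% at 1.2 to 2 CPM, while 21 of the 22 regions of at least 5 CPM were repeated sequence.

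Among gained regions free of repeated sequence, the highest lay in the body of Abhd6, which encodes a lipase that degrades monoacylglycerol. It had 57 tags (3.24 CPM) in D12S+, was at least 6.11-fold above D9T-, and was called in D16S+ (3.54 CPM) and iPSCs (1.81 CPM) but in no earlier library. The next was the promoter of Esrp1, which encodes an epithelial splicing regulator. Its strongest region had 55 tags (3.12 CPM) in D12S+, 0.514 CPM in D6T-, 2.79 CPM in D16S+ and 0.941 CPM in iPSCs, and was not called in D9T-. D9T- had another region of 7 tags in the same promoter, so the gene counts as common in the lists below. The gene body of Hs3st5, a heparan sulfate sulfotransferase gene, had 47 tags (2.67 CPM), with 3.31 CPM in D16S+ and 2.18 CPM in iPSCs and no earlier call. The region upstream of Zic2, a zinc finger factor gene of the epiblast and neural plate, had 46 tags (2.61 CPM), with 1.17 CPM in D6T- and 3.21 CPM in D16S+. Of the 2839 gained regions that reached 2 times the D9T- limit and held no repeated 51-mer, 2354 (82.9%) were called in both D16S+ and iPSCs, and 519 (18.3%) were new.

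The strongest lost regions were distal. A region 69016 bp upstream of Ppp2r2d had 37 tags in D9T- (2.80 CPM) and was not called in D12S+, at least 6.17-fold lower. It had 2.20 CPM in D6T- and 2.07 CPM in D6 siNT and was not called in D0, D16S+ or iPSCs. The region shown above at Chl1, a neural adhesion molecule gene, had 35 tags in D9T- and 4.30 CPM in D6T-, 2.34 CPM in D6 siNT and 1.36 CPM in D3, with no call in D0 or after D9T-. The one at Dap had 35 tags in D9T- and 4.53 CPM in D6T-, and was likewise not called in D0 or after D9T-. All of the 10 highest lost regions were called in D6T- and D6 siNT, none in iPSCs, and 1, near Krt78, in D16S+ (0.614 CPM). They lay from 21873 to 1184220 bp from the nearest protein-coding TSS.

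Common regions had a median log2 ratio (D12S+ over D9T-) of 0.22, with an interquartile range from -0.28 to 0.67 and extremes of -2.46 and 4.00. A log2 ratio of at least 1 is called risen and one of at most -1 fallen, as a rule of size and not a test. By it 2985 of the 25770 (11.6%) rose and 1225 (4.75%) fell, so 70.9% of the calls were higher. The values nearest the threshold were 1.0004 and 0.9971 for rises and -1.0151 and -0.9996 for falls. The split depended on the scale. It was 85% higher with the fold enrichment of the files (3838 and 676), 84.1% with equal numbers of regions (2985 and 563) and 38.7% after the ratios were centred on their median (1442 and 2288). The exact 95% counting interval lay above 0 in 88.4% of risen and below 0 in 80.1% of fallen regions. The same tags chose these regions, so high shares are built in and do not back the calls. Over all 25770 common regions, the interval lay above 0 in 16.5% and below 0 in 4.61%.

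Risen regions were mostly promoters and fallen regions mostly distal. The summit lay within 3 kb upstream of a TSS in 68.7% of risen regions (67.0 to 70.3) and in 7.76% of fallen regions (6.39 to 9.39), against 40.2% of all common regions. Gained regions lay in promoters in 19.6% and lost regions in 8.35%. The median log2 ratio was 0.57 over the 10356 common promoter regions and -0.04 over the 15414 others. GC content moved with it, from -0.52 under 40% GC and -0.27 between 40% and 50% to 0.59 between 60% and 70% and 0.63 above. The median GC content was 64.5% in risen and 46% in fallen windows. The same gradient appeared for D12S+ over D6 siNT (-0.41 under 40% GC, 0.78 between 60% and 70%), while D9T- over D6 siNT moved from 0.17 to 0.19 over the same classes. D9T- over D6T- ran the other way (-0.69 and -1.29). D16S+ over D6T- was at -0.28 under 40% GC (219 regions), -0.88 between 40% and 50% and -0.65 above 70%. Over D6 siNT, D16S+ rose too, from 0.12 between 40% and 50% GC to 0.75 between 60% and 70%, beside -0.08 and 0.78 for D12S+. D12S+ over D6T- rose from -1.35 under 40% GC and -1.28 between 40% and 50% to -0.61 above 70%. D9T- over D0 went from 0.43 under 40% GC to 0.68 between 60% and 70%, and D12S+ over D0 from -0.05 to 1.31. A rise with GC content was thus not particular to D12S+, but over D0 it was larger for D12S+ than for D9T-. The part of the gradient of D12S+ over D9T- in the ratios of single promoters was not tested. Between 40% and 50% GC, promoters had a median of -0.05 and other regions -0.28.

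**Figure D3:**
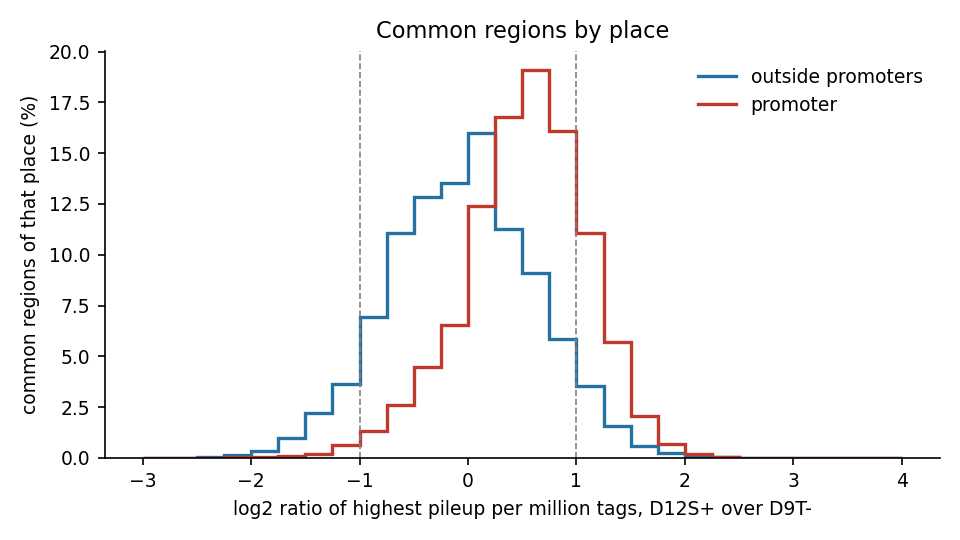
The x axis is the log2 ratio of the highest pileup in CPM, D12S+ over D9T-, in steps of 0.25, and the y axis the percentage of common regions of that place. Dashed lines mark the ratios of -1 and 1 that were called, and the promoter curve (median 0.57) lies to the right of the curve for other regions (median -0.04).

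Other libraries, which the ratio did not use, separated the fallen regions. They were called in D16S+ in 17.7% and in iPSCs in 16.0%, against 71.0% and 68.1% of all common regions. Within 40% to 50% GC the shares in iPSCs were 13.8% for fallen, 87.3% for risen and 34.8% for all common regions. For the 216 fallen regions called in both D6T- and D16S+, the median log2 ratio of D16S+ over D6T- was -1.89, against -0.78 over all common regions and -0.53 over risen ones. Both calls were present in 17.6% of fallen, 70.1% of common and 97.7% of risen regions, so the fallen median covers a small part of its class. Fallen regions had a median of 2.85 CPM in D6T- (in 1222 regions called), 1.29 CPM in D6 siNT (1188), 1.74 CPM in D9T- and 0.681 CPM in D12S+. Risen regions had a median of 2.95 CPM in D6T-, 0.984 CPM in D9T-, 2.33 CPM in D12S+ and 2.22 CPM in D16S+. They were lower again in iPSCs (1.13 CPM), near D6 siNT (1.15 CPM) and D0 (0.851 CPM). The lower level in iPSCs was not particular to risen regions. Common regions that neither rose nor fell had 1.42 CPM in D16S+, 0.903 in iPSCs, 1.01 in D6 siNT and 0.851 in D0. The D9T- and D12S+ values chose the risen and fallen regions and are given as a description.

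The most fallen region with at least 20 tags in the higher library lay in the body of a gene near Lrrc40, with 33 tags in D9T- and 8 in D12S+ (log2 ratio -2.46, 95% interval -3.78 to -1.32). The region 56739 bp upstream of Eomes, a T-box factor gene of the early embryo, had 35 and 9 tags (-2.37, -3.62 to -1.29). It had 0.893 CPM in D3, 2.52 CPM in D6T- and 2.30 CPM in D6 siNT, and was not called in D0, D16S+ or iPSCs. The Eomes promoter itself had 10 and 16 tags (0.26, -0.97 to 1.57), which the counts do not separate from no change. A region at Snap25, a gene of synaptic vesicle fusion, had 40 and 11 tags (-2.28, -3.39 to -1.29), and 1 near Galntl6 had 54 and 14 (-2.36, -3.33 to -1.49). Without repeated sequence, the most risen region was the promoter of Neurod4, a neurogenic factor gene, with 8 tags in D9T- and 54 in D12S+ (2.34, 1.26 to 3.62) and 3.26 CPM in D16S+. A region at the promoter of Srebf1, a regulator gene of lipid synthesis, rose as well (7 and 43 tags, 2.20, 1.04 to 3.6). The region at Tfrc, the transferrin receptor gene, had 10 and 59 tags (2.15, 1.17 to 3.28).

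The AP-1 letters TGANTCA, searched within 100 bp of the summit on both strands, differed between the classes. They stood in 39.5% of lost and 52.7% of fallen windows, against 13.5% of gained, 3.35% of risen, 21.3% of common and 20.1% of all 64037 windows. Outside promoters and between 40% and 50% GC the shares were 42.5% for lost, 54.7% for fallen, 20.8% for gained and 9.64% for risen regions, beside 41.4% for all common regions. In this class lost regions were thus level with common ones, fallen regions above them, and gained and risen regions below. In common regions outside promoters, the median log2 ratio was -0.33 with an AP-1 match (4702 regions) and 0.09 without (10712). Within 40% to 50% GC these medians were -0.41 and -0.15, and within 50% to 60% they were -0.22 and 0.10. The Sox letters CATTGT stood in 24.5% of lost, 29.1% of fallen, 16.3% of gained and 21.2% of common regions of the same class.

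The octamer ATGCNAAT did not mark gained regions as a whole. It was present in 3.83% of gained windows, 5.74% of lost windows and 3.97% of all windows. It separated the gained regions by their history. Outside promoters, the 3087 gained regions that were new and called in D16S+ and iPSCs held the octamer in 8.13% (7.22 to 9.15) and AP-1 in 5.83% (5.06 to 6.71). The 6913 called before and in neither later library held the octamer in 2.57% (2.23 to 2.98) and AP-1 in 34.2% (33.0 to 35.3). Between 40% and 50% GC, the octamer stood in 12.8% of the former and 3.67% of the latter, the Sox letters in 24.5% and 14.3%, and AP-1 in 8.16% and 38.4%. The Runx letters TGTGGTT were in 2.20% and 7.44%, in the order of AP-1, while the TEAD letters GGAATG were nearly level (17.1% and 18.3%). The Esrrb letters TCAAGGTCA stood in 0.972% of the new regions called later and in 0.259% of all windows. Lost regions outside promoters held AP-1 in 40.4% and the octamer in 6.00%.

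**Figure D4:**
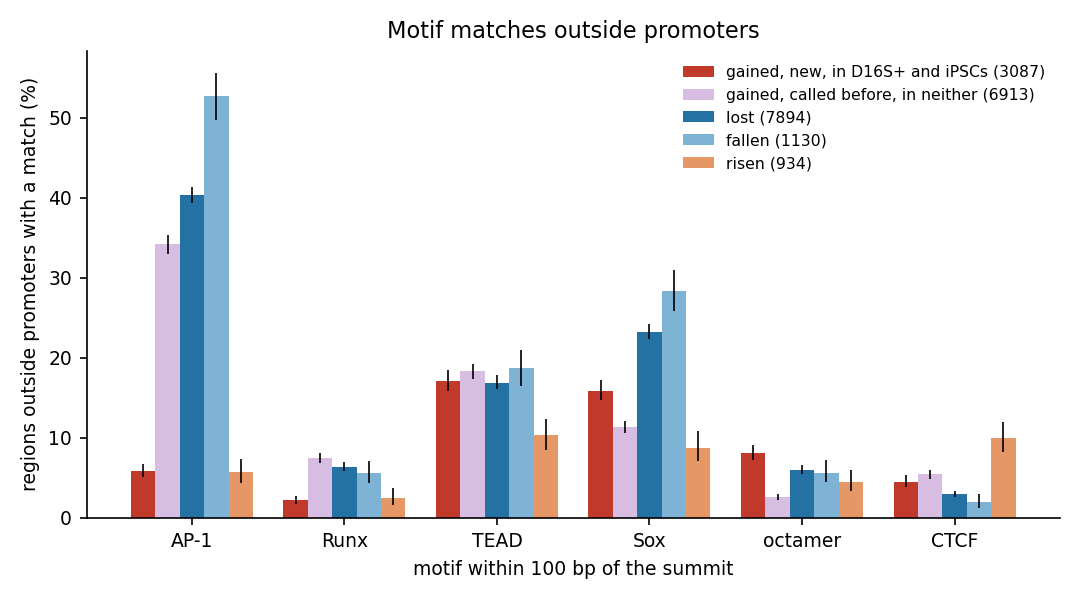
Bars give the percentage of regions outside promoters with each motif within 100 bp of the summit, for 2 sets of gained regions, lost, fallen and risen regions (numbers in the legend), with 95% Wilson intervals over regions. AP-1 was at 34.2% or more in lost, fallen and the gained regions that were called before and in neither D16S+ nor iPSCs, and at 5.83% in the new gained regions called in both.

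Promoters that rose differed less in their letters. The Ets letters CCGGAAGT stood in 8.63% of risen promoter regions (7.49 to 9.92), beside 5.88% of all common promoter regions (5.44 to 6.35). The CTCF letters CNAGGNGGC stood in 12.3% and 10.7%, and the Klf letters GGGTGTGG in 2.83% and 3.19%. The region shown above at Haus6, which encodes a subunit of the augmin complex of the spindle, had 12 tags in D9T- and 64 in D12S+ (log2 ratio 2.00). Rraga, a Rag GTPase gene of mTORC1 signalling, had 13 and 64 (1.88), and Ino80, a chromatin remodeller gene, had 11 and 53 (1.85). Outside promoters and between 50% and 60% GC, common regions had a median log2 ratio of 0.28 with the Ets letters (41 regions) and 0.00 without (6007). A match is a description of letters and not a bound site.

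At the level of genes, 2819 of 21418 protein-coding promoters (13.2%) had a region in D12S+ only, 147 (0.686%) in D9T- only, 10835 in both and 7617 in neither. Of the 10835, the ratio was at least 1 in 2382 (22.0%) and at most -1 in 41 (0.378%), and the median log2 ratio was 0.62. A gained region between the promoter and the end of the gene was present in 9187 genes (42.9%) and a lost one in 2944 (13.7%). The 18 housekeeping promoters were all common, with a median of 0.78 and 4 at 1 or above, as a reference for the lists. For a gene, the ratio compares the highest region of each library in the promoter, which need not overlap. Pou5f1, Sox2, Klf4 and Myc were left out of the lists because the introduced cDNAs can add tags at their exons.

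Pluripotency promoters were among the gained ones. Of 34 naive and core pluripotency genes, 13 promoters were gained (38.2%, beside 13.2% of all promoters) and none was lost. Some lists of other cell types had like or higher shares, with 40% of endothelial, 40% of primitive endoderm and 57.1% of neural promoters gained. The blood and trophectoderm lists had 0 gained. Of the 13, 5 were called in none of D0, D3 and D6T-, namely Nanog, Zfp42, Dppa5a, Tdgf1 and Gdf3, and all 13 were called in D16S+ and iPSCs. Zfp42, the gene of the pluripotency marker Rex1, had 23 tags in D12S+, 61 in D16S+ and 40 in iPSCs and was not called in the other libraries, at least 2.46-fold above D9T-. Tdgf1, the gene of the Nodal co-receptor Cripto, had 23, 39 and 34 tags in the same libraries and none called before. Nanog had 15 tags (0.852 CPM), 28 in D16S+ and 16 in iPSCs. The exact 95% interval of its 15 tags, 0.477 to 1.40 CPM, reaches below the D9T- limit of 0.530 CPM, and the lower limit was above that value in 8 of the 13 promoters. Esrrb, a nuclear receptor gene of naive pluripotency, had 25 tags (1.42 CPM) and was not called in D9T-, but had been called in D0 (0.568 CPM), D3 (0.496 CPM) and D6T- (0.654 CPM). Among the 15 common promoters of this list, 7 had a ratio of at least 1 and the median was 0.80, close to that of the housekeeping list. Klf5, a Krüppel-like factor gene of self-renewal, had 39 and 116 tags (1.16, 0.62 to 1.72) and Sall4 10 and 29 (1.12, 0.04 to 2.32). Nr5a2, Dppa2, Dppa4 and Tcl1 had no promoter region in D12S+ and were called in D16S+ and iPSCs.

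Of 15 primed epiblast genes, 7 promoters were gained (46.7%), 3 of them new. Zic2 was the strongest (46 tags), Nodal had 17 tags and was called in D16S+ and iPSCs but in no earlier library, and Fgf5 had 15 and was not called in iPSCs. Of 25 genes of FGF, LIF and Nodal signalling, 21 were common with a median log2 ratio of 0.65 and 3 were gained (12%), which is near the 0.62 and 13.2% of all promoters. Bmpr1a, a BMP receptor gene, had 15 and 54 tags (1.43, 0.59 to 2.37).

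Epithelial promoters were gained in 15 of 34 genes (44.1%), beside 13.2% of all promoters. The share was 40% for endothelial and primitive endoderm and 57.1% for neural promoters, and 0 for blood and trophectoderm ones. Of the 15 epithelial promoters, 10 had been called in D6T- and 2 were new. Epcam, the gene of an epithelial adhesion molecule, had 27 tags (1.53 CPM, 1.01 to 2.23) in D12S+, 44 in D16S+ and 15 in iPSCs, and was not called in any earlier library. Cdh1, the E-cadherin gene, had 24 tags (1.36 CPM, 0.873 to 2.03), with 1.65 CPM in D16S+, 1.17 CPM in iPSCs and 0.463 CPM in D3. Esrp1 had the highest ratio of the list, from 7 tags to 55 (2.56, 1.42 to 3.94). Cgn, a tight junction gene, had 9 and 32 (1.42, 0.32 to 2.67). Krt8 and Krt19, keratin genes, had ratios of -0.41 and -0.54 with intervals that include 0.

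Of 50 fibroblast and mesenchymal genes, 14 promoters were gained (28.0%), 27 were common and 1 was lost (2%, beside 0.686% of all promoters), with a median log2 ratio of 0.31 over the common ones against 0.62 over all promoters. A lost region between the promoter and the end of the gene was present in 20 of the 50 genes (40%, beside 13.7% of all genes) and a gained one in 38 (76%, beside 42.9%). Of the 14 gained, 13 had been called in MEFs and none was new. Cdh11, a mesenchymal cadherin gene, had 14 tags in D12S+ and 63 in D6T- and was not called in D9T-, and Tagln, a smooth muscle gene, had 14 tags in D12S+ and 34 in D6T-. The lost promoter was that of Acta2, the smooth muscle actin gene, with 13 tags in D9T- (0.984 CPM, 0.524 to 1.68), 35 in D0 and 44 in D6T-, and no call in D12S+, D16S+ or iPSCs. The promoters of Postn, Fap and Col6a3 were called in D0, D3 and D6T- and had no region in D9T- or later. The Twist2 promoter did likewise, with a further call in D6 siNT. Wwtr1 (22 and 86 tags, 1.55, 0.86 to 2.30), the gene of the Hippo effector TAZ, and Fosb (8 and 40 tags, 1.91, 0.79 to 3.21), an AP-1 gene, were risen promoters of the AP-1, TEAD and Runx list, in which 15 of 21 were common with a median of 0.63. Jun had 46 and 106 tags (0.79, 0.28 to 1.32) and Fos 17 and 35 (0.63, -0.25 to 1.56), close to the median of all promoters.

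The genes of the sorted markers gave few counts. Thy1 had 11 tags in D12S+ (0.625 CPM, 0.312 to 1.12), with calls in D0 (0.410 CPM), D3 (0.562 CPM), D16S+ (0.567 CPM) and iPSCs (0.489 CPM) and none in D6T-, D6 siNT or D9T-. The D9T- limit lies within this interval, so a difference between D9T- and D12S+ was not detectable. SSEA-1 is made by fucosyltransferases. Fut9 had 9 tags in D9T- and 29 in D12S+ (1.27, 0.16 to 2.54), with 1.79 CPM in D16S+ and 1.28 CPM in iPSCs, and Fut4 was called in neither D9T- nor D12S+. Twist1, a mesenchymal factor gene, had 9 and 18 tags (0.59, -0.64 to 1.92). Of 9 blood and macrophage genes, 8 had no promoter region in either library and Cd68 had 19 and 21 tags. Of 10 endothelial genes 4 were gained, of 8 trophectoderm genes none, and of 7 neural genes 4 were gained and 1, Neurog2, was lost (8 tags in D9T-, 18 in D16S+). Of 10 primitive endoderm genes 4 were gained, and Lama1 had 48 and 28 tags (-1.19, -1.92 to -0.49). The lower tag limit was above the D9T- limit in 2 of 4 gained endothelial, 2 of 4 neural and 2 of 4 primitive endoderm promoters.

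**Figure D5:**
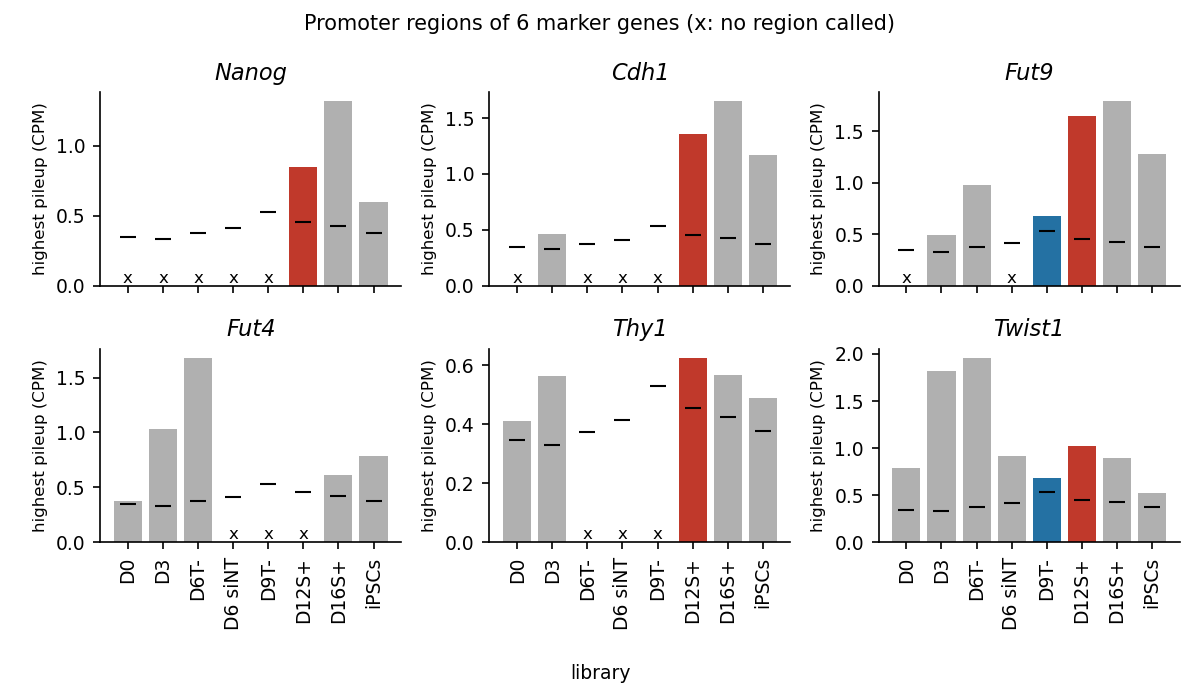
Bars give the highest pileup of a promoter region in CPM for 6 genes in the 8 libraries, with D9T- in blue and D12S+ in red, an x where no region was called, and a short line at the lowest CPM called in that library. Nanog and Cdh1 were called in D12S+, D16S+ and iPSCs but not in D9T-, and the Thy1 bar of D12S+ (0.625 CPM) is little above the D9T- line (0.530 CPM).

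Genes with most gained regions were large or repeated. Gm20388, with an annotated span of 4435 kb, held 142 gained and 13 lost regions, and Fgfr2, whose annotated span is 3009 kb, held 55 and 14. Gm2792 (59 gained) and C130026I21Rik (55) have spans of 225 and 278 kb, and dropped out of the 10 highest when repeated sequence was left out. Camta1, a transcription activator gene of 802 kb, had 21 gained and 1 lost, Ptprg, a receptor phosphatase gene of 689 kb, 19 and 1, and Tns3, an adhesion gene of 233 kb, 19 and 2. Pde4d, a phosphodiesterase gene of 1504 kb, led the lost regions with 17 beside 20 gained. Dlg2 (1945 kb) had 13 lost and 14 gained, and Macrod2 (1998 kb) and Cdk14 (617 kb) had more lost than gained regions (11 and 7, 10 and 4).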

How the data were processed

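ATAC-Seq peak files of 8 libraries were used, 1 per population. 1 further library, of cells with a knockdown, was not used. The authors mapped 51 bp reads to mm9 and removed duplicates (Picard and STAR are named in the submitters' processing notes). Per the file headers, MACS2 2.1.0.20151222 called peaks without a control, at a q-value cutoff of 0.05, with tags extended to 200 bp and no local background. The deposited pileup is a signal, the tags over a summit, unscaled for depth. The deposited fold enrichment is a ratio to tags spread evenly over the genome, and the deposited significance is −log10 of the q-value. Chromosome M was to be removed according to the methods, yet peaks on it are listed.

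Overlapping peaks were merged (chromosomes 1 to 19), classes formed by 1 bp of overlap, and ratios taken from the highest pileup per 1000000 total tags of the file header (CPM). Place followed the strongest summit, with promoters of 3 kb upstream of a TSS (GENCODE vM1, all genes), as in the study's methods. Gene promoters used 21418 protein-coding genes. Motifs and GC content were read from 100 bp on each side of the summit, and 30 51-mers per window were looked up in the genome for repeats. With 1 library per group no test was possible. Shares have 95% Wilson intervals, ratios exact conditional intervals and tag numbers exact Poisson intervals, which cover counting error only. Reads without molecular identifiers are not known to be independent molecules.

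The regions named are the 10 highest gained and lost and the 10 highest and lowest ratios (at least 20 tags in the higher library), the same without repeated 51-mers, the 10 genes with most gained and lost regions, genes of the lists with a gained, lost or called promoter, and Nanog, Thy1, Fut4, Fut9, Twist1 and Cdh1. The selections without repeated 51-mers, the regions whose sequence is printed, and the list genes without such a call (Jun, Fos, Krt8, Krt19, Cd68, Eomes, Nr5a2, Dppa2, Dppa4, Tcl1, Postn, Fap, Col6a3 and Twist2) were chosen after their values were seen. 1 region that the rule names is not reported here. The comparison, members and gene lists were chosen with earlier results of these data known. Alternatives were equal numbers of regions, an overlap of 50%, a −log10 q-value of at least 5, chromosome X, fold enrichment, a minimum of 20 tags, other promoters and other windows. The functions were tested on simulated data. Versions were matplotlib 3.10.9, numba 0.67.0, scipy 1.17.1, pandas 2.3.3 and numpy 2.4.6, run under Python 3.11.15.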

Additional observations from a re-analysis of the deposited data

Results flagged for a closer look

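Peaks were listed on the mitochondrial sequence, which no comparison above uses and which the methods describe as removed. The highest summit there was at 1924 CPM in D9T- and 1139 CPM in D12S+, against 435 (D0) to 1255 CPM (D6T-) in the other libraries. D9T- was thus the highest of the 8. Whether the total used for CPM includes these tags is not given in the sources used here, and their part in the ratios was not tested.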

How the results depend on the processing

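No paired analysis was possible because each group has 1 library. No single value changed sign under any alternative run, but the balance of risen over fallen regions turned when ratios were centred on their median. The alternatives without repeated 51-mers, with centred ratios and all those of the numbers of risen and fallen regions were chosen after seeing the data. With equal numbers of regions there were 14187 gained and 12929 lost regions, 563 fell, the median log2 ratio was 0.37, and 21.4% of gained and 10.1% of lost regions lay in promoters. Also, 62.7% of gained regions were called in iPSCs, 38.0% of lost regions in D0, and the octamer share of gained minus lost regions was -0.883 points (main value -1.91). At a −log10 q-value of at least 5 there were 5159 lost and 16016 common regions, 1740 rose and 594 fell. Then 24.9% of gained regions were promoters, 65.0% were called in iPSCs, 38.9% of lost regions were called in D0 and the AP-1 share of gained minus lost regions was -33.4 points (main value -26.0). At 2 times the other library's limit, 3786 were gained and 2371 lost. Fold enrichment gave a median of 0.33 and 676 falls, and at least 20 tags a median of 0.53. Centring gave 1442 rises and 2288 falls. An overlap of 50% between the classes gave 9.29% of lost regions in promoters, 31.3% of them called in D0 and an AP-1 difference of -24.6 points, and one of 50% with the other library gave 49.6% of gained in iPSCs and 28.4% of lost in D0. Promoters cut to 1 kb before and 100 bp after the TSS gave 14.5% of gained and 4.05% of lost regions, and protein-coding genes 16.6% and 6.48%. A window of 50 bp per side gave differences of -16.4 (AP-1) and -1.03 points (octamer). Without repeated 51-mers, 20.4% of gained regions were promoters and 54.6% were called in iPSCs. The other 43 values moved little (counts within 1.5 times). D9T- depth limits all gains: openings under 0.530 CPM were not detectable there.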

Other observations

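The lost window near Gm9008 and the fallen window near Galntl6, on different chromosomes, share a run of 20 letters that starts 1 base after the AP-1 site.
Shared run: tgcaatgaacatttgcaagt
It occurred on either strand in 2 of 8613 lost windows, 3 of 1225 fallen windows and 6 of 25770 common windows, the fallen ones included, and in 0 of 29654 gained windows. The run was chosen after the sequences were seen.

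At the neighbouring steps of the time course, which share a library with this one, D6T- to D9T- gave 814 gained and 96912 lost regions with a median log2 ratio of -1.02 over 32515 common regions, and D12S+ to D16S+ gave 14127 gained and 20543 lost regions with a median of -0.05 over 33643.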
